A study of Mus musculus with 10 samples.

Results

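The 9 genes described here encode enzymes that reduce doxorubicin or make reactive oxygen alongside it: the carbonyl reductases Cbr1 and Cbr3, the quinone reductase Nqo1, the flavin or molybdenum enzymes Por, Xdh and Nos3, and the NADPH oxidase subunits Cybb, Cyba and Nox4. They were chosen by symbol through the GENCODE annotation of GRCm39, and all 9 were found among the 78298 genes of the count table. All 9 also passed the filter on low counts that left 16700 genes for testing. RNA was sequenced from 5 hearts labelled p38δ knockout (KO) and 5 labelled wild type (WT). The mice were females on a C57BL/6J background, the deletion was germline and so not limited to heart cells, and their age is not given in the sources used here. All 10 animals had received doxorubicin at 30 mg/kg by 1 intraperitoneal injection 72 h before the hearts were taken. The effect of the drug itself was therefore not measured, and the question was which transcript levels differed with the p38δ label after the drug.

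Doxorubicin is an anthracycline with a ketone on its side chain and a quinone in its ring system. Carbonyl reductases convert the ketone to an alcohol, doxorubicinol, which is known to accumulate in heart muscle. Flavin enzymes can instead pass a single electron to the quinone, and the resulting semiquinone hands that electron to oxygen, which yields superoxide and restores the drug, a loop known as redox cycling. NADPH oxidases make superoxide or hydrogen peroxide directly, without the drug as a carrier.

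Library totals ranged from 21403189 to 33477767 counts in the KO-labelled group and from 22082289 to 40627138 in the WT-labelled group. Mapk13, which encodes p38δ, stood at 0.27 to 0.487 CPM (counts scaled to a common library size with TMM factors) in the KO-labelled hearts, against 6.41 CPM in WT library 1 and 0.0481 to 0.128 CPM in WT libraries 2 to 5. The targeted gene was therefore lower in 4 of 5 WT libraries than in every KO library, against the direction of the labels. Apart from WT library 1 its level was at most 0.487 CPM, where few counts limit precision. These values cannot decide whether the labels are right, and groups are given below as labelled. The 10 ventricular cardiomyocyte markers summed to 28769 to 62559 CPM in KO libraries, against 21491 CPM in WT library 1 and 31961 to 48501 CPM in WT libraries 2 to 5. WT library 1 stood apart from the rest. Its 12 airway and alveolar markers summed to 2234 CPM, and WT library 3 had 179 CPM, against 0.809 to 3.17 CPM in the KO libraries and 0.946 to 1.40 CPM in the other WT libraries. Its macrophage and monocyte, fibroblast, atrial and mesothelial marker sums were also the highest of the 10. KO library 4 had the highest cardiomyocyte sum. The members' values are given below without either library where that moved them by more than 1.5 times or changed their sign.

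**Figure D1:**
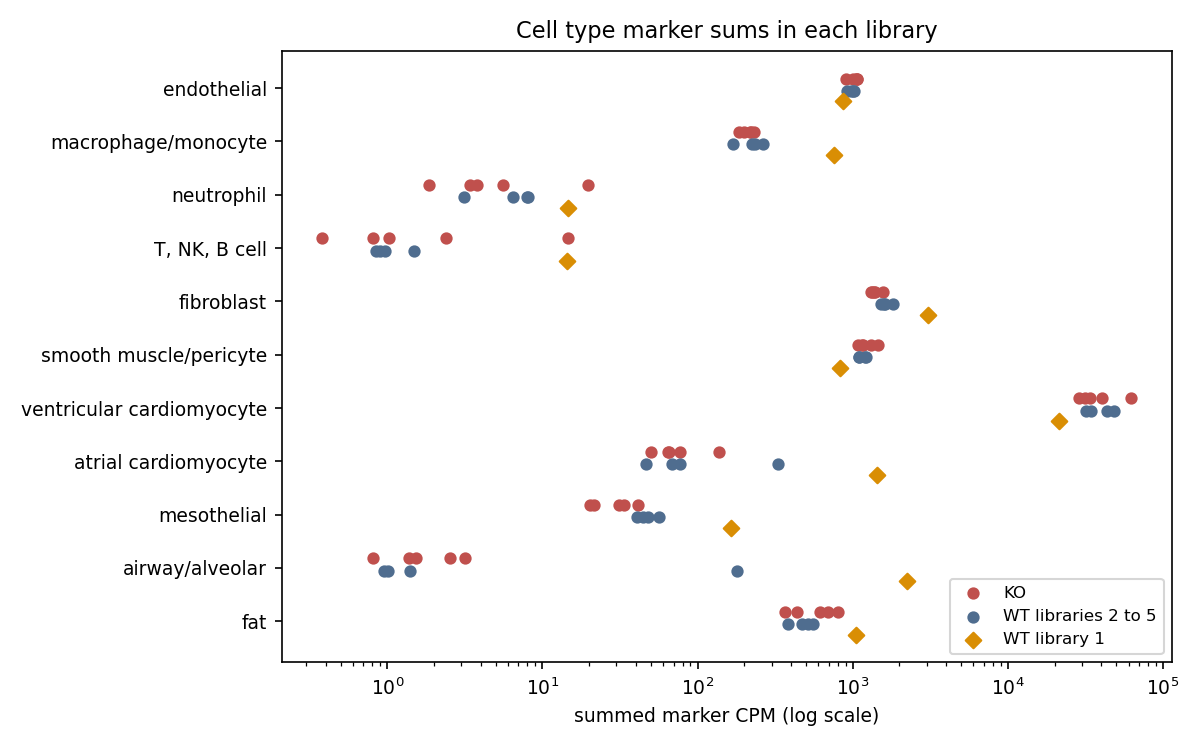
Summed CPM of 11 cell type marker lists (rows) in each library, on a log axis, with KO libraries in red, WT libraries 2 to 5 in blue and WT library 1 as an orange diamond. WT library 1 lay above every other library for macrophage and monocyte, fibroblast, atrial, mesothelial, airway and fat markers, with 753.5 CPM of macrophage and monocyte markers against at most 263 CPM elsewhere.

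The 250 bases upstream of the canonical start were read from GRCm39 for each of the 9 genes. They are shown for Por, the gene whose groups did not overlap, and for Nqo1 and Cybb. Nqo1 had the highest mean level in KO hearts per merged exon length, and Cybb the lowest share of G and C. Capitals mark the GC box GGGCGG, on either strand. Coordinates are chr5:135717640-135717889 on the plus strand for Por, chr8:108129935-108130184 on the minus strand for Nqo1 and chrX:9335571-9335820 on the minus strand for Cybb.
Por: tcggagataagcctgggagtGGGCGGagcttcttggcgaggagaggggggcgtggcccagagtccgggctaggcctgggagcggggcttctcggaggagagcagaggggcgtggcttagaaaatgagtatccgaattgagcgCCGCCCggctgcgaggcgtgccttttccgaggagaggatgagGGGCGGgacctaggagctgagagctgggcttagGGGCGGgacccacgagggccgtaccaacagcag
Nqo1: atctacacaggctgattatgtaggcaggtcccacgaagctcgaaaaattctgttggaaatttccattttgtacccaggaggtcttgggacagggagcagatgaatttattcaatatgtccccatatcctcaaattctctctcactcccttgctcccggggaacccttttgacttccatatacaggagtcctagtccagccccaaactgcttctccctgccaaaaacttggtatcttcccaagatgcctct
Cybb: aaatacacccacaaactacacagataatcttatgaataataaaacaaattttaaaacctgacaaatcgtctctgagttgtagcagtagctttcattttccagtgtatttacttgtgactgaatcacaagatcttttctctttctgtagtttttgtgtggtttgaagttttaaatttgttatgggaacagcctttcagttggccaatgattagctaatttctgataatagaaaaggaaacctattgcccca

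The Por window held 4 GC boxes and was 66.4% G and C. At least 4 such matches were present in 5.47% of 13356 windows of the same length upstream of tested protein-coding genes, and at least 1 in 48.3%. Nos3 and Nox4 had 1 GC box each, and the other 6 members had none. The Nqo1 window was 46.8% and the Cybb window 32.8% G and C, against a median of 56.4% over all windows. The core of the antioxidant response element, TGACNNNGC on either strand, was in none of the 9 windows and in 10.6% of all windows. TATAAA, on either strand, was likewise in none of the 9 and in 7.5% of all windows. CACGTG, which reads the same on both strands, was in the Cbr3 window alone and in 7.63% of all windows. These counts say only whether the letters occur in this stretch.

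None of the 9 genes passed the test between KO-labelled and WT-labelled hearts (edgeR quasi-likelihood test, Benjamini-Hochberg adjusted over all tested genes). Of all tested genes 0.353% passed, 0.24% with a higher and 0.114% with a lower level in KO hearts. Before adjustment, 2 of the 9 had p under 0.05 by edgeR, Por and Nox4, where 6.86% of all tested genes did. DESeq2 called none of the 7 members for which it gave an adjusted p, and 1 of them, Por, had an unadjusted p under 0.05. The median log2 fold change, KO over WT, was -0.12 over the 9 members and -0.01 over all tested genes, with 7 members below 0 and 2 above. Without WT library 1 the members' median was -0.081, with 5 below and 4 above. Without both WT library 1 and KO library 4 it was 0.041, and with voom and quality weights 0.020, each with 4 below and 5 above. WT library 1 had the highest level of the 10 libraries for 5 of the 9, and for 27.8% of all tested genes. In whole-heart RNA, fewer cells of a type and less RNA per cell cannot be told apart.

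**Figure D2:**
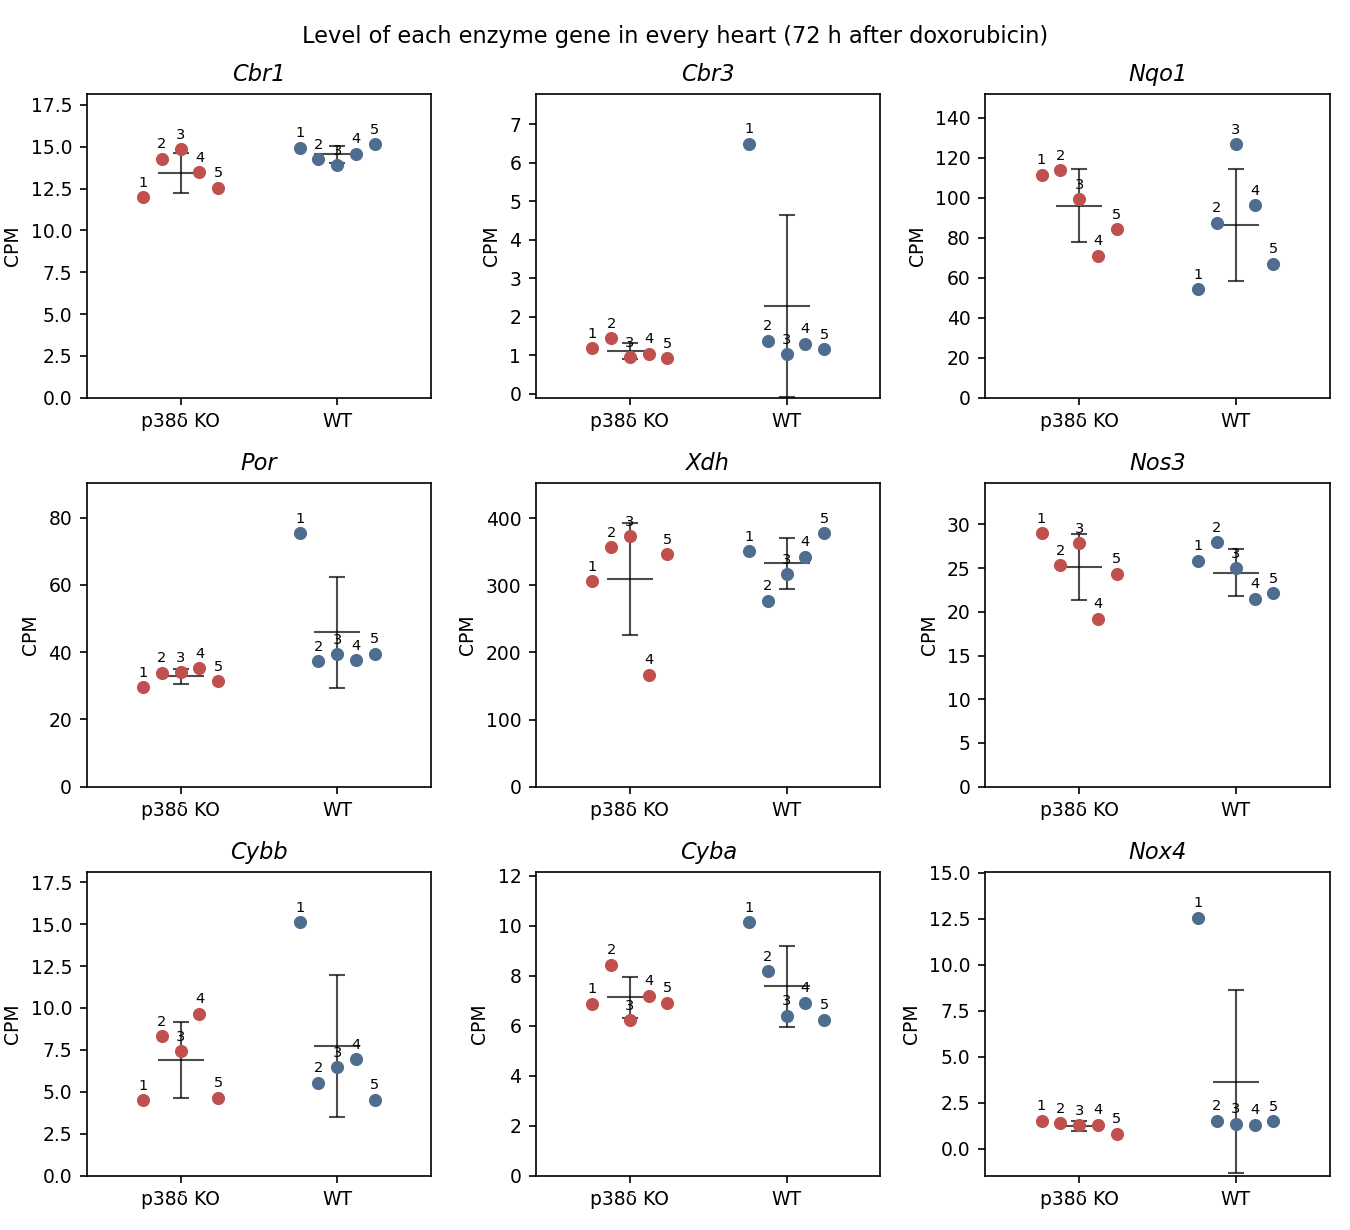
CPM of each gene in each heart, with KO libraries (red) to the left of WT libraries (blue), replicate numbers above the points, and black bars for the mean ± SD of 5 libraries. WT library 1 lay far above the other WT libraries for Cbr3, Por, Cybb and Nox4, and Por was the gene whose KO points all lay below its WT points.

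Cbr1 (ENSMUSG00000051483, chromosome 16, 93402741 to 93407393) encodes the main cytosolic carbonyl reductase, the enzyme best known for making doxorubicinol. It stood at 12.0, 14.3, 14.9, 13.5 and 12.5 CPM in KO libraries 1 to 5, and at 14.9, 14.3, 13.9, 14.6 and 15.2 CPM in WT libraries 1 to 5. The groups overlapped in a narrow band. Relative to the mean, Por varied less than Cbr1 between WT libraries 2 to 5 (mean ± SD, 38.5 ± 1.16 against 14.5 ± 0.534 CPM). Over all 5 WT libraries Cbr1 varied less than any other member. It averaged 13.4 ± 1.18 CPM in KO hearts and 14.6 ± 0.507 CPM in WT hearts (SD, n = 5 each). The log2 fold change was -0.12 with a 95% interval of -0.29 to 0.05, or 0.819-fold to 1.04-fold (adjusted p = 0.766 by edgeR). WT library 1 did not stand apart here, and the log2 fold change without it was -0.11.

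Cbr3 (ENSMUSG00000022947, chromosome 16, 93479726 to 93487879) lies downstream of Cbr1 on the same strand and encodes a related carbonyl reductase that is less active towards many substrates of Cbr1. The transcripts aligned over 786 bases at 79.0% identity, and no other gene matched either at 95% over 200 bases. Cbr3 stood at 1.18, 1.44, 0.952, 1.04 and 0.928 CPM in KO libraries, against 6.50 CPM in WT library 1 and 1.38, 1.03, 1.3 and 1.16 CPM in WT libraries 2 to 5. The high value was that of 1 heart, and the other 9 overlapped. With all 10 libraries the log2 fold change was -1.05 ± 0.51 (SE; adjusted p = 0.722 by edgeR). Without WT library 1 it was -0.13 ± 0.21 (adjusted p = 0.98 by edgeR). The KO libraries held 20 to 41 counts of Cbr3 each, which limits its precision.

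Nqo1 (ENSMUSG00000003849, chromosome 8, 108113835 to 108129934) encodes NAD(P)H quinone dehydrogenase 1, which reduces quinones by 2 electrons at once and so bypasses the semiquinone. It stood at 111, 114, 99.3, 70.9 and 84.2 CPM in KO libraries, against 54.3, 87.5, 127, 96.2 and 67.0 CPM in WT libraries. The groups overlapped widely. Both the lowest and the highest values were in WT libraries, library 1 and library 3, and KO library 4 was the lowest of its group. It averaged 95.9 ± 18.2 CPM in KO hearts and 86.3 ± 28 CPM in WT hearts (SD, n = 5 each), and the log2 fold change was 0.15 with a 95% interval of -0.32 to 0.62 (adjusted p = 0.902 by edgeR). With each library left out in turn, the log2 fold change ranged from 0.027 without WT library 1 to 0.33 without WT library 3, and it was 0.24 without KO library 4. The spread between hearts of the same label was thus wider than the difference between labels.

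Por (ENSMUSG00000005514, chromosome 5, 135698887 to 135764182) encodes cytochrome P450 reductase, the flavoprotein of the endoplasmic reticulum that feeds electrons to P450 enzymes, haem oxygenase and squalene epoxidase, and a classic 1-electron reductase of doxorubicin. It stood at 29.5, 33.8, 34.0, 35.3 and 31.4 CPM in KO libraries, against 75.4, 37.3, 39.4, 37.7 and 39.5 CPM in WT libraries. All 5 KO values lay below all 5 WT values, the single case among the 9 members. Such separation, lower in KO, was found for 0.898% of all tested genes, and separation in either direction for 1.78%. Por averaged 32.8 ± 2.32 CPM in KO hearts and 45.9 ± 16.5 CPM in WT hearts (SD, n = 5 each). The log2 fold change was -0.48 with a 95% interval of -0.90 to -0.07, and it did not pass the adjusted threshold (adjusted p = 0.677 by edgeR).

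WT library 1 set much of the size of this difference and not its direction. Without it, Por averaged 38.5 ± 1.16 CPM in the remaining 4 WT hearts, and the log2 fold change was -0.23 ± 0.07 (SE; adjusted p = 0.464 by edgeR). The exact two-sided permutation test on log2(CPM + 1) gave p = 0.00794, which is the smallest p that this design can give and the value that any fully separated gene has, so it adds nothing to the separation itself. The separation was narrow: the highest KO value was 35.3 CPM, in KO library 4, and the lowest WT value was 37.3 CPM, in WT library 2. The 10 fibroblast markers summed to 1303 to 1571 CPM in KO libraries, against 3051 CPM in WT library 1 and 1525 to 1814 CPM in WT libraries 2 to 5. The sums overlapped. By log2 fold change 9 of the 10 genes were below 0 and 1 above, and WT library 1 was the highest for all 10. Of the 10 genes 2, Dcn and Gsn, were fully separated and lower in KO hearts, as Por was, and the rest overlapped. Col1a1 and Col3a1 reached 22.8 and 99.8 CPM in KO libraries, against at most 14.9 and 42.7 CPM in WT libraries 2 to 5. The 10 mesothelial markers summed to 20.2 to 41.4 CPM in KO libraries, against 163 CPM in WT library 1 and 40.9 to 56.1 CPM in WT libraries 2 to 5. All 10 had a log2 fold change below 0, 9 had an unadjusted p under 0.05 by edgeR, none passed after adjustment, and Upk3b was fully separated. Other marker lists went in either direction by log2 fold change. All 15 macrophage and monocyte, all 5 tested atrial and the 2 tested airway markers were below 0, with Myl7 (atrial) fully separated. All 10 cardiomyocyte, 9 of 12 endothelial and 7 of 10 mural cell markers were above 0. Pdgfrb, a mural cell marker, was fully separated and higher in KO hearts. The part of any marker list in the Por values was not tested. Tmem120a overlaps Por on the opposite strand, and its counts came to 13.3% of those of Por.

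Xdh (ENSMUSG00000024066, chromosome 17, 74190203 to 74257399) encodes xanthine dehydrogenase, an enzyme of purine breakdown, which makes superoxide in its oxidase form and can reduce quinones by 1 electron. In mouse heart it is known as a gene of the capillary endothelium. It stood at 306, 356, 373, 167 and 346 CPM in KO libraries, against 351, 277, 316, 343 and 378 CPM in WT libraries. KO library 4 lay far below the other 9 libraries, which overlapped. The group means were 309.7 ± 83.7 CPM in KO hearts and 332.9 ± 38 CPM in WT hearts (SD, n = 5 each). The log2 fold change was -0.10 with a 95% interval of -0.52 to 0.31 (adjusted p = 0.927 by edgeR). Without KO library 4 it was 0.054, with the opposite sign (adjusted p = 0.938 by edgeR). Xdh lies on the same chromosome as Mapk13.

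Nos3 (ENSMUSG00000028978, chromosome 5, 24569787 to 24589475) encodes endothelial nitric oxide synthase, whose reductase domain resembles Por and can pass an electron to doxorubicin. It stood at 29.0, 25.3, 27.8, 19.2 and 24.4 CPM in KO libraries, against 25.8, 27.9, 25, 21.5 and 22.1 CPM in WT libraries. The groups overlapped, and the lowest value was again in KO library 4. The log2 fold change was 0.04 with a 95% interval of -0.21 to 0.29, or 0.863-fold to 1.22-fold (adjusted p = 0.96 by edgeR), 0.058 without WT library 1 and 0.12 without KO library 4. The 12 endothelial markers summed to 1067, 1045, 1011, 902 and 1060 CPM in KO libraries, against 865, 1026, 969, 921 and 1003 CPM in WT libraries. KO library 4 was thus also the lowest KO library for these markers, and their part in the Xdh and Nos3 values was not tested. Atg9b overlaps Nos3 on the opposite strand, with transcripts that share at least 200 bases, and the stranding of the counts is not given in the sources used here. Atg9b stood at 0.236 to 0.739 CPM in KO and 0.257 to 9.42 CPM in WT libraries, the highest in WT library 1. Reads could thus be divided between Atg9b and Nos3.

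Cybb (ENSMUSG00000015340, chromosome X, 9301491 to 9354010) encodes the catalytic subunit of the phagocyte NADPH oxidase, known as gp91phox or NOX2, and is a gene of macrophages and neutrophils that other heart cells also transcribe at a low level. It stood at 4.49, 8.31, 7.43, 9.67 and 4.64 CPM in KO libraries, against 15.1, 5.55, 6.46, 6.93 and 4.53 CPM in WT libraries. WT library 1 was the highest, and the other 9 libraries overlapped. The log2 fold change was -0.16 ± 0.34 (SE; adjusted p = 0.938 by edgeR), and 0.25 ± 0.23 without WT library 1 (adjusted p = 0.937 by edgeR). Without KO library 4 it was -0.32. The 15 macrophage and monocyte markers summed to 200, 233, 219, 186 and 222 CPM in KO libraries, against 753.5, 235, 263, 223 and 170 CPM in WT libraries. KO library 4, with the highest Cybb level of its group, had the lowest of these sums in its group. The 10 neutrophil markers summed to 5.55, 19.7, 3.81, 3.41 and 1.86 CPM in KO libraries. In WT libraries they summed to 14.5, 6.47, 7.96, 8.13 and 3.11 CPM. The part of either list in the Cybb values was not tested. Xk overlaps Cybb on the opposite strand, with transcripts that share at least 200 bases, and stood at 8.11 to 13.2 CPM in KO and 7.34 to 12.1 CPM in WT libraries, so reads could be divided between them.

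Cyba (ENSMUSG00000006519, chromosome 8, 123150422 to 123159706) encodes p22phox, the membrane partner that both the Cybb and the Nox4 proteins need. It stood at 6.89, 8.45, 6.24, 7.20 and 6.92 CPM in KO libraries, against 10.1, 8.18, 6.40, 6.93 and 6.25 CPM in WT libraries. WT library 1 was the highest, by a smaller margin than for Cybb, and the other libraries overlapped. The log2 fold change was -0.09 ± 0.15 (SE; adjusted p = 0.916 by edgeR), and 0.04 ± 0.12 without WT library 1 (adjusted p = 0.985 by edgeR).

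Nox4 (ENSMUSG00000030562, chromosome 7, 86895304 to 87047918) encodes an NADPH oxidase that is active without cytosolic activators and releases mainly hydrogen peroxide. It was the scarcest of the 9 per length. It stood at 1.53, 1.37, 1.29, 1.3 and 0.809 CPM in KO libraries, against 12.6 CPM in WT library 1 and 1.53, 1.37, 1.3 and 1.49 CPM in WT libraries 2 to 5. WT library 1 was 8.83 times the mean of the other WT libraries, the largest such ratio among the members, and the remaining 9 overlapped. With all 10 libraries the log2 fold change was -1.55 ± 0.68 (SE; adjusted p = 0.714 by edgeR). Without WT library 1 it was -0.18 ± 0.21 (adjusted p = 0.957 by edgeR). The KO libraries held 27 to 40 counts each.

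**Figure D3:**
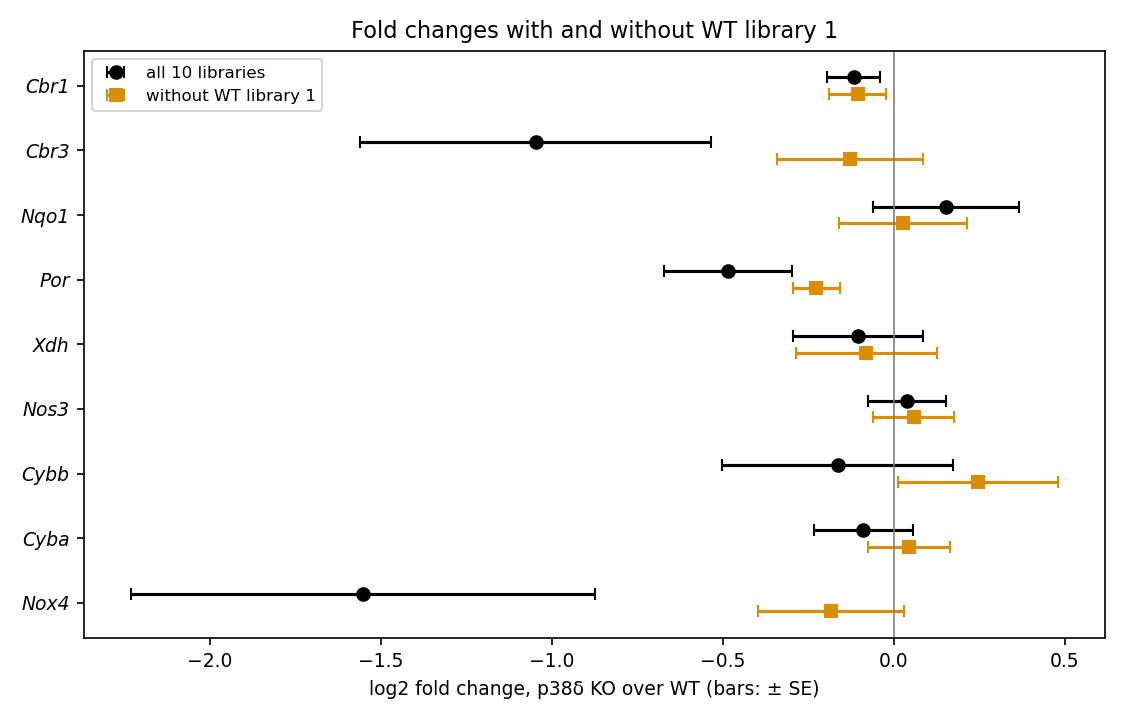
Log2 fold change of each gene, KO over WT, with bars of ± SE, from all 10 libraries (black circles) and without WT library 1 (orange squares). The values of Nox4 and Cbr3 moved from -1.55 and -1.05 to -0.18 and -0.13, those of Cybb and Cyba changed sign, and that of Por moved from -0.48 to -0.23.

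The order of the members was compared per length, in TPM, counts divided by merged exon length and scaled to 1 total in every library, which is not scaled with TMM factors. In KO hearts Nqo1 was the most abundant at 65.2 ± 12.5 TPM (SD, n = 5), followed by Xdh at 45.4 ± 13.8, and their ranges overlapped. Por followed at 12.0 ± 1.05 TPM, below Xdh in all 10 libraries. Nos3 had 9.42 ± 1.58, Cbr1 6.60 ± 0.774 and Cyba 5.78 ± 0.652 TPM, and each overlapped its neighbour in range. Cybb had 2.21 ± 0.686 and Cbr3 1.26 ± 0.223 TPM, again with overlap. Nox4 was last at 0.276 ± 0.051 TPM, below Cbr3 in all 10 libraries. With the longest annotated transcript as the length, Xdh (68.0) stood above Nqo1 (59.1 TPM) and the rest of the order did not change. Averaged over all 10 libraries, Nqo1 exceeded 96.8% of tested genes and Nox4 exceeded 18.9% of them. For Nox4 that average was 0.685 TPM and was raised by WT library 1, at 4.20 TPM. The KO libraries had 0.191 to 0.321 TPM and WT libraries 2 to 5 had 0.279 to 0.346 TPM of Nox4. By the ratio of KO means, Cyba was 2.62 times Cybb, its partner in the phagocyte oxidase.

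**Figure D4:**
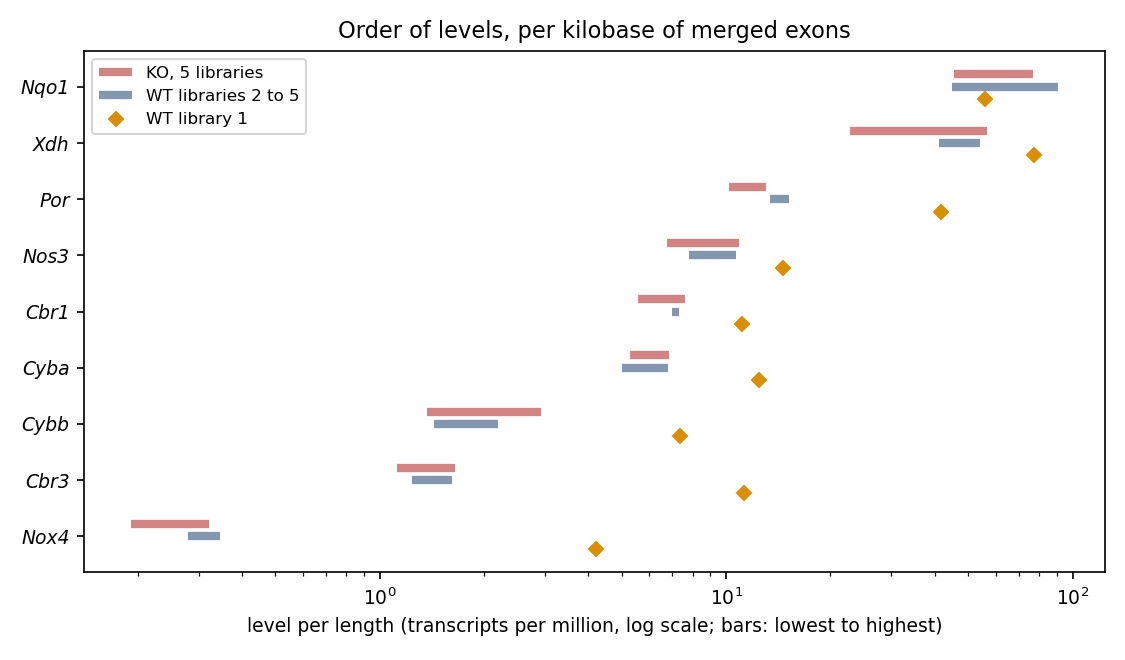
Level per length of each gene in TPM, on a log axis, ordered by the KO mean. Red bars span the 5 KO libraries, blue bars WT libraries 2 to 5, and the orange diamond is WT library 1. Nqo1 and Xdh lay above the other 7 genes in both bars, and Nox4 lay below all others.

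For each member, the genes whose log2(CPM + 1) followed it most closely were sought among 12250 protein-coding genes. The points share their libraries, and these values are descriptions. For Cbr3 the closest was Gltp, with Pearson's r = 0.99 and Spearman's rho = 0.90 over 10 libraries, and r = 0.88 without WT library 1. It was followed by Serpinb1a and Elovl1, with r of 0.99 each, and 0.82 and 0.69 without WT library 1. For Nox4, Fam83h, Tnni2 and Elovl1 had r of 0.99 each, and rho of 0.85, 0.56 and 0.75. Without WT library 1, r was 0.81 for Fam83h, 0.73 for Tnni2 and 0.71 for Elovl1. For Por, Aacs, Krt7 and Smpd3 had r of 0.97 each over 10 libraries, and 0.80, 0.78 and 0.77 without WT library 1. For Xdh the closest were Hipk1, Ints3 and Gigyf2, and r for Hipk1 was 0.96 with all libraries and 0.96 without WT library 1. For Nos3 the closest were Thap7 (r = 0.97), Strbp and Tead4. Nqo1 was followed by Tmem205 (r = 0.94), Epn1 and Fbxo6, and Cbr1 by Man2b1 (r = 0.90), Zfp61 and Tom1l1. Cybb was followed by Ddr1 (r = 0.94) and by Scd2 and Fasn, which encode enzymes of fatty acid synthesis. Cyba was followed by Rnf26 (r = 0.98), Cd82 and Tmsb10.

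Around the 9 members, 169 tested genes of 10 pathway lists were examined, and none of them passed the test (lowest adjusted p = 0.569 by edgeR). DESeq2 called none of the 160 for which it gave an adjusted p, and 6 had an unadjusted p under 0.05 with it. Before adjustment, 11 had p under 0.05 by edgeR, or 6.51%, beside 6.86% of all tested genes. WT library 1 held the highest level for 70 of them, or 41.4%. The counts that follow leave the 9 members out, and a gene can be in more than 1 list. In the carbonyl reductase list, 16 of 23 genes were tested, 4 above and 12 below 0, and the median change was -0.13 on the log2 scale, beside -0.01 for all tested genes. Cbr2, a carbonyl reductase known from lung airway cells, stood at 5.01 ± 0.97 CPM in KO hearts (SD, n = 5), against 126 CPM in WT library 1 and 3.55 to 13.6 CPM in WT libraries 2 to 5. Dcxr, dicarbonyl and L-xylulose reductase, had 4.77 ± 1.23 CPM in KO hearts and 6.17 ± 1.59 CPM in WT hearts. Akr1c14, an aldo-keto reductase, had 4.14 ± 1.01 CPM in KO hearts and 5.66 ± 3.22 CPM in WT hearts. For Akr1c14 the log2 fold change was -0.46, and -0.025 without WT library 1.

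Among the 2-electron quinone reductases 9 of 10 genes were tested, 4 above and 5 below 0, with a median of -0.011. Cryzl2, a zeta-crystallin-like gene, had 6.90 ± 0.863 CPM in KO hearts and 5.34 ± 0.535 CPM in WT hearts (log2 fold change 0.37, adjusted p = 0.572 by edgeR). Cryzl1 had 16.7 ± 0.931 CPM in KO hearts and 18.6 ± 0.623 CPM in WT hearts, without overlap between groups (log2 fold change -0.15, adjusted p = 0.714 by edgeR). Ptgr1, prostaglandin reductase 1, was at 0.911 ± 0.239 CPM in KO hearts, against 42.8 CPM in WT library 1 and 0.90 to 1.2 CPM in the other WT libraries. In the list of 1-electron flavin reductases, 16 of 17 genes were tested, 7 above and 9 below 0, with a median of -0.0021. Nos2, the inducible nitric oxide synthase, had 4.16 ± 1.54 CPM in KO hearts and 3.06 ± 0.57 CPM in WT hearts, with a log2 fold change of 0.45 that was 0.21 without KO library 4. Cyb5r2, a cytochrome b5 reductase, had 7.23 ± 0.663 CPM in KO hearts and 6.14 ± 1.19 CPM in WT hearts. Aox3, an aldehyde oxidase, had 0.853 ± 0.281 CPM in KO hearts, against 24 CPM in WT library 1 and 0.722 to 1.83 CPM in the other WT libraries.

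For NADPH oxidase subunits and partners, 12 of 17 genes were tested, 3 above and 9 below 0, with a median of -0.22, and WT library 1 was the highest for 8 of the 12. Ncf1, which encodes the cytosolic organiser p47phox, had 3.88 ± 1.16 CPM in KO hearts and 5.25 ± 3.47 CPM in WT hearts. Its log2 fold change was -0.44 (adjusted p = 0.828 by edgeR), and 0.067 without WT library 1. Duox1, a dual oxidase known from airway and thyroid epithelium, had 0.458 ± 0.085 CPM in KO hearts, against 2.72 CPM in WT library 1 and 0.192 to 0.669 CPM in the other WT libraries. The list of electron acceptors of Por and of cytochrome b5 had 21 of 25 genes tested, 6 above and 15 below 0, with a median of -0.16. Cyp26b1, which breaks down retinoic acid, had 19.7 ± 5.94 CPM in KO hearts and 12.7 ± 2.30 CPM in WT hearts (log2 fold change 0.64; edgeR gave an adjusted p of 0.569). Cyp2e1 had 0.392 ± 0.136 CPM in KO hearts, against 124 CPM in WT library 1 and 0.232 to 2.49 CPM in the other WT libraries. Cyp2s1 had 0.764 ± 0.208 CPM in KO hearts, against 21.9 CPM in WT library 1 and 0.746 to 2.02 CPM in the other WT libraries.

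The cofactor and regulator list of endothelial nitric oxide synthase had 22 of 24 genes tested, 11 above and 11 below 0, with a median of 0.004. The chaperone gene Hsp90aa1 had 124 ± 13.2 CPM in KO hearts and 148 ± 28.7 CPM in WT hearts. Slc7a1, an arginine transporter gene, had 57.9 ± 4.89 CPM in KO hearts and 48.3 ± 10.2 CPM in WT hearts. Nostrin, which encodes a trafficking factor, had 5.04 ± 0.902 CPM in KO hearts and 4.04 ± 0.996 CPM in WT hearts. Once WT library 1 was left out, the log2 fold change of Hsp90aa1 was -0.12 in place of -0.26, and that of Slc7a1 0.15 in place of 0.26. In the purine breakdown list around Xdh, 19 of 21 genes were tested, 7 above and 12 below 0, with a median of -0.054. Guanine deaminase Gda had 25.8 ± 7.24 CPM in KO hearts and 38.9 ± 16.9 CPM in WT hearts. Pnp, purine nucleoside phosphorylase, had 9.55 ± 2.13 CPM in KO hearts and 13.4 ± 6.16 CPM in WT hearts. With WT library 1 left out, the log2 fold change of Gda was -0.30 in place of -0.60, and that of Pnp -0.16 in place of -0.49. Adenosine deaminase Ada had 1.01 ± 0.422 CPM in KO hearts, against 99.7 CPM in WT library 1 and 0.798 to 1.25 CPM in the other WT libraries.

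Nrf2 is the transcription factor known to drive Nqo1 and Cbr3 under electrophile stress. Of its 33 other listed regulators and targets, 32 were tested, 9 above and 23 below 0, with a median of -0.085. Gsta3, a glutathione transferase gene, had 18.1 ± 3.40 CPM in KO hearts and 27.5 ± 7.63 CPM in WT hearts (log2 fold change -0.61; edgeR gave an adjusted p of 0.572). The pentose phosphate enzyme gene Taldo1 had 34.3 ± 2.77 CPM in KO hearts and 38.6 ± 5.44 CPM in WT hearts. G6pdx, the gate of that pathway, had 6.32 ± 0.917 CPM in KO hearts, against 30.8 CPM in WT library 1 and 4.91 to 7.49 CPM in the other WT libraries. Carbonyl reductases and Por use NADPH, and the list of enzymes that regenerate it had all 15 genes tested, 5 above and 10 below 0, with a median of -0.10. Idh1, cytosolic isocitrate dehydrogenase, had 50.1 ± 7.33 CPM in KO hearts and 59.1 ± 9.61 CPM in WT hearts. Aldh1l1, a folate enzyme gene, had 6.44 ± 0.595 CPM in KO hearts and 8.48 ± 3.75 CPM in WT hearts. Leaving out WT library 1, the log2 fold change of Taldo1 was -0.080 in place of -0.17, that of Idh1 -0.14 in place of -0.24 and that of Aldh1l1 -0.082 in place of -0.40. Nnt, which makes NADPH inside mitochondria, passed the test: it stood at 292 ± 27.0 CPM in KO hearts and 49.8 ± 11.6 CPM in WT hearts (SD, n = 5 each; log2 fold change 2.55; edgeR gave an adjusted p of 6.97e-06). How the KO-labelled and WT-labelled mice were bred is not given. A difference in genetic background between the groups cannot be told apart from the p38δ label for Nnt, and its part was not tested. The 16 tested genes that remove superoxide and peroxide had 9 above and 7 below 0 and a median of 0.02. Glutathione peroxidase Gpx1 had 29.0 ± 3.09 CPM in KO hearts and 36.6 ± 13.4 CPM in WT hearts. Sod3, extracellular superoxide dismutase, had 7.95 ± 0.99 CPM in KO hearts and 10.5 ± 5.31 CPM in WT hearts. Gpx8 had 14.7 ± 1.15 CPM in KO hearts and 16.3 ± 2.77 CPM in WT hearts. When WT library 1 was left out, the log2 fold change of Gpx1 was -0.092 in place of -0.34, that of Sod3 -0.026 in place of -0.40 and that of Gpx8 -0.035 in place of -0.15.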

How the data were processed

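RNA was sequenced from 10 hearts. STAR 2.5.2 aligned the reads to GRCm39, per the labels' protocols, and the submitters' processing notes list RSEM 1.3.0. The authors deposited expected counts per gene, all of them whole numbers (782980 of 782980 values). Release of the annotation, stranding and trimming: not given in the sources used here. Where a read fits several genes, RSEM shares it out by estimation. GENCODE M39 gave symbols, positions and lengths for 78168 identifiers.

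Groups came from the genotype labels. Nothing says how the samples were bred, housed or batched, titles differ in form between the groups, and p-values measure only the spread between these samples. Within groups no pair of libraries was a duplicate (chi-square over its degrees of freedom, 9.47 to 179). The main test was edgeR 4.0.16 (R 4.3.3) with TMM factors, the expression filter at a minimum count of 10, robust quasi-likelihood and adjusted p under 0.05. The SE of a log2 fold change is its size divided by the square root of F. Levels per length used the same counts. A pseudocount of 1 was used on the log2 scale for single genes. BLAST 2.17.0 sought near-identical transcripts.

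Named genes are the members, the 3 genes of smallest p in each of 10 pathway lists, the 3 closest genes by Pearson's r, Mapk13 and Nnt. One gene that this rule reached is not reported here. Tmem120a, Atg9b and Xk were added for their overlap. The members and lists were chosen with earlier results of these data known. Alternatives were other scalings, other filters, each library left out, and WT library 1 with KO library 4 left out, beside DESeq2 1.42.0, limma 3.58.1 and sva 3.50.0. Genes with few counts are the least precise at these totals.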

Additional observations from a re-analysis of the deposited data

Results flagged for a closer look

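In groups of 5 libraries, a library was taken as standing apart when its gap to the nearest other value was large against the range of its group (Dixon's test at the 95% level). For independent groups not chosen by their values, chance gives about 1 such group in 20. That rate does not apply here, since many of the genes were named for a small p in these same libraries. The groups also share their libraries. Over 39 genes, 24 of 78 groups were marked. In 21 of the 24 the library was WT library 1, always as the highest of the WT group.

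Among the members, WT library 1 stood at 6.50 CPM for Cbr3, 75.4 CPM for Por, 15.1 CPM for Cybb and 12.6 CPM for Nox4. Among carbonyl and quinone reductases it stood at 126 CPM for Cbr2, 11.4 CPM for Akr1c14 and 42.8 CPM for Ptgr1. The aldehyde oxidase gene Aox3 had 24 CPM. Among oxidase subunits it had 2.72 CPM of Duox1 and 11.3 CPM of Ncf1. Among P450 genes it had 21.9 CPM of Cyp2s1 and 124 CPM of Cyp2e1. It had 199 CPM of Hsp90aa1, 99.7 CPM of Ada, 67.9 CPM of Gda and 24.2 CPM of Pnp. It had 40.5 CPM of Gsta3, 30.8 CPM of G6pdx, 19.9 CPM of Sod3 and 21.2 CPM of Gpx8, and 6.41 CPM of Mapk13.

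In the KO group, library 4 had 5.90 CPM of Akr1c14, against 3.46 to 3.95 CPM in the other KO libraries, and 4.70 CPM of G6pdx, against 6.53 to 6.87 CPM. KO library 2 had 1.34 CPM of Aox3, against 0.619 to 0.809 CPM. Macrophage, fibroblast, atrial, mesothelial, airway and fat marker sums were also the highest in WT library 1, and their part in these values was not tested.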

How the results depend on the processing

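No member passed in any of 180 refits (20 alternatives for each of 9 genes), and the lowest adjusted p was 0.223, for Por without WT library 1 and KO library 4. DESeq2 gave no p for Cbr3 and Nox4. Of the 180 log2 fold changes, 16 changed sign, in 5 genes, none of them called. With 1 surrogate variable Nqo1 was -0.043, Cybb 0.15 and Cyba 0.078. With voom and quality weights Xdh was 0.032, Cybb 0.050 and Cyba 0.020. Without WT library 1 and KO library 4, Xdh was 0.076, Cybb 0.091 and Cyba 0.041. Scaling by library totals alone, which moved the median of all genes by -0.10, gave -0.070 for Nos3. Leaving out each library in turn gave log2 fold changes of -0.18 to 0.054 for Xdh, -0.018 to 0.12 for Nos3, -0.32 to 0.25 for Cybb and -0.16 to 0.044 for Cyba. The differences in mean log2(CPM + 1) then ranged from -0.15 to -0.076 for Cbr1, -0.23 to 0.057 for Xdh, -0.021 to 0.12 for Nos3, -0.22 to 0.17 for Cybb and -0.12 to 0.036 for Cyba. For Cbr1 the exact permutation p was 0.0317 without KO library 3 and 0.0952 with all libraries. With each library left out, the Mapk13 log2 fold change ranged from -2.06 to 2.13, its value without WT library 1 (adjusted p = 0.0443 by edgeR), a direction that library decided. DESeq2 called 118 genes in all, against 59 by edgeR. With the longest transcript as length, the KO means were 9.87 for Cbr1, 18.9 for Por, 68.0 for Xdh, 6.44 for Cyba and 0.54 TPM for Nox4. No paired analysis was possible because the KO titles share no replicate number with the WT titles. Cbr3 and Nox4 had 20 to 41 and 27 to 40 counts per KO library, which limits their precision.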
